A study of Mus musculus with 8 samples.

Results

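The Hedgehog pathway carries a signal from epithelial cells of the gut to the fibroblasts beneath them. The ligands Shh, Ihh and Dhh bind the receptor Ptch1, which otherwise holds back the membrane protein Smo. Once released, Smo acts in the primary cilium on the zinc finger factors Gli1, Gli2 and Gli3, which switch target genes on or off. Gli1, Ptch1 and the ligand-binding inhibitor Hhip are themselves classic targets, and the forkhead factors Foxf1, Foxf2 and Foxl1 are known as Hedgehog-responsive factors of gut mesenchyme. Nkx2-3 is a homeobox factor of the mesenchyme of the intestine and spleen. These 10 genes (Gli1, Gli2, Gli3, Ptch1, Smo, Hhip, Foxf1, Foxf2, Foxl1 and Nkx2-3) are described here among the 55573 genes counted, and 9 of them were among the 15259 genes with enough counts to test. They were chosen by name, and each matched 1 Ensembl identifier.

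The cells were mouse colon fibroblasts of the C57BL6/J strain, grown on plastic in Advanced DMEM F12 with serum. Cells of both groups were treated with APTKA conditioned medium (APTKA is not spelled out in the labels). In 4 libraries the cells were not irradiated, and in the other 4 they received 3 fractions of 2 Gy, with collection 72 h after the first dose. The libraries carry the numerals I to IV in each group. The submitters describe the 4 samples of a group as independent without naming an animal or culture for any of them. The p-values set a group difference against the spread among these samples, and that spread may be technical. If so, the p-values do not carry over to new animals or cultures. The labels name no epithelium or other gut tissue in the cultures, which limits them as a model of signalling between the 2 layers.

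Library totals ran from 28731227 to 37157216 counts. All 10 fibroblast markers examined were at 1 CPM or more (CPM are read counts scaled to a common library size), with a summed level of 16239 to 19071 CPM in non-irradiated and 14794 to 16114 CPM in irradiated libraries, and 2 of them, Col1a2 and Vim, fell. The 8 epithelial markers, Epcam and Cdh1 among them, summed to at most 1.21 CPM in any library. The 6 smooth muscle and pericyte markers summed to 363 to 392 CPM and 307 to 362 CPM, mostly Actg2, which fell. The part of these marker changes in the results was not tested. Markers of the remaining types were low: the 6 leukocyte markers summed to at most 4.92 CPM, the 5 endothelial to 12.5, the 3 of interstitial cells of Cajal to 10.6, the 6 of enteric glia and neurons to 1.26 and the 5 of mesothelium to 1.12. Tie1, an endothelial receptor, had 0 counts in all libraries. Mitochondrial rRNA stood at 15129 and 15263 CPM of all counts in irradiated I and II and at 4178 to 5934 CPM in the other 6 libraries. Within the irradiated group, libraries I and II resembled each other (chi-square per degree of freedom 5.52), as did III and IV (5.14), while the pairs across these differed more (16.1 to 27.8). Among non-irradiated libraries, II and IV (5.33) and I and III (8.46) were likewise closer than the remaining pairs (9.89 to 13.9).

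Of the 10 genes, only Gli2 was called, and it fell. Gli3, its paralog, and the membrane proteins Ptch1 and Smo were not called. Foxf1, Foxf2, Foxl1 and Nkx2-3 had higher means in irradiated cells by 1.09 to 1.23-fold but did not pass the test. Gli1 and Hhip, the targets most used as readouts, were close to the limit of detection in both groups. Calls were made with edgeR's quasi-likelihood test, at 0.05 after Benjamini-Hochberg adjustment over all 15259 genes. By that rule 1 of 9 members was called, 0 higher and 1 lower, where 6.74% of all genes tested were called, 2.59% higher and 4.15% lower. At an unadjusted p under 0.05 the members counted 4 higher and 2 lower, against 1449 and 1779 of all genes tested (21.2% together). DESeq2 called 2 members higher and 2 lower, against 537 and 776 of these genes, and limma-voom 0 and 1, against 373 and 614. The median log2 fold change was 0.05 over the 9 members and 0.00 over all genes tested.

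Gli3, which DESeq2 called lower, has a promoter entry that is not shown. Its RefSeq start site (15463723) differs from its outermost GENCODE start (15463235). Promoter sequence is shown for Gli2, the member that fell, and for Foxf2 and Nkx2-3, which DESeq2 called higher. The sequences are the 250 bases before the RefSeq start site (GRCm38.p6), 5′ to 3′ on the gene's strand, which here equals the outermost GENCODE start of each gene. Capitals mark matches, on either strand, to the GC box GGGCGG, to CCAAT, or to CCACCCA, the core of the GLI binding site.
Gli2, chr1:119053620-119053869, minus strand: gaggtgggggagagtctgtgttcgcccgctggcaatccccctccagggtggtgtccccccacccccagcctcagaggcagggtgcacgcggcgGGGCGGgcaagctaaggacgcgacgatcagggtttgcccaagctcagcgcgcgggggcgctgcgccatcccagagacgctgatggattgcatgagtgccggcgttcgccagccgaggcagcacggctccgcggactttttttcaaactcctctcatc
Foxf2, chr13:31625566-31625815, plus strand: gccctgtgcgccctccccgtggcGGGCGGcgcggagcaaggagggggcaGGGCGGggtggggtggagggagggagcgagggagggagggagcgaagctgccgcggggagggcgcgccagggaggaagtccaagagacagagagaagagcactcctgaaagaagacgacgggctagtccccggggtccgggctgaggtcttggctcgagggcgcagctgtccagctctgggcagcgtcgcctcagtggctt
Nkx2-3, chr19:43612075-43612324, plus strand: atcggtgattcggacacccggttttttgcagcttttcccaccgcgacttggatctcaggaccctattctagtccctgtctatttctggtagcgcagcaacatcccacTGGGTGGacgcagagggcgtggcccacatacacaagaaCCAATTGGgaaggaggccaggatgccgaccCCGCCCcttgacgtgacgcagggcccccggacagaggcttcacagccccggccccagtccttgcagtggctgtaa

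The Nkx2-3 window held the GLI core once, on the minus strand from base -143 to -137 before the start site, and its 2 CCAAT matches overlap. The full GLI site GACCACCCA, which contains that core, matched none of the 7 members with an entry (Gli2, Gli3, Ptch1, Smo, Hhip, Foxf2 and Nkx2-3), and neither did the forkhead motif TGTTTAC. Gli1, Foxf1 and Foxl1 had no entry. Over all 32851 promoter windows of this length, 0.225% held the full GLI site, 8.11% the core, 3.17% the forkhead motif, 32.7% the GC box and 33.8% CCAAT. GC content of the windows was 67.2% for Gli2, 71.6% for Foxf2 and 60.0% for Nkx2-3. An exon of a long noncoding RNA gene on the other strand, 1700018A04Rik, lies partly in the Foxf2 window. A match in these letters is a description, and no match says only that the letters are not in the window.

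Levels of different genes can be compared only per length, so CPM were divided by the kilobases of annotated exon. On that scale Foxf1 was the most abundant member in non-irradiated cells (41.4 ± 2.17 CPM per kilobase; SD, n = 4), followed by Nkx2-3 (27.1 ± 1.12), Smo (24.8 ± 0.922), Foxf2 (14.4 ± 0.897) and Gli3 (5.44 ± 0.263). Below these stood Foxl1 (2.12 ± 0.268), Ptch1 (1.72 ± 0.138) and Gli2 (1.57 ± 0.161), whose ranges over libraries overlapped from each to the next. Gli1 was at 0.0631 ± 0.0119 and Hhip at 0.00270 ± 0.00336. Each of the first 5 genes lay clear of the next in all non-irradiated libraries. Smo, Gli3, Foxf1, Foxf2 and Nkx2-3 were thus at higher levels per length than the receptor Ptch1 and the target Gli1, while Foxl1 overlapped Ptch1. The annotated exons of Ptch1 cover 14185 bases, but its longest transcript has 10383, so its level depends on the length used.

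**Figure D1:**
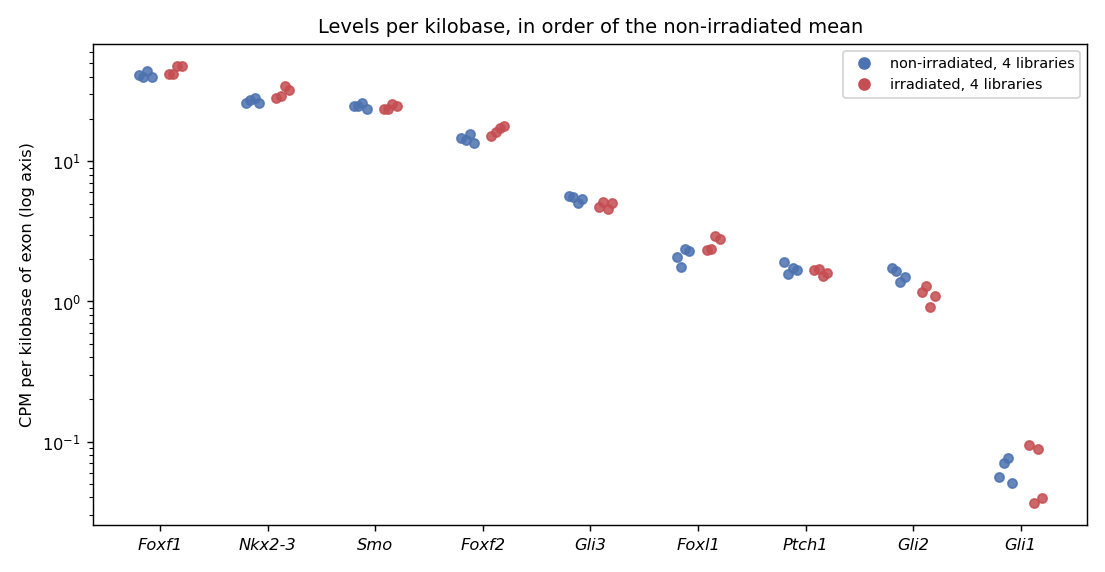
CPM per kilobase of annotated exon (log axis) for 9 members in order of the non-irradiated mean, with 1 point per library. Hhip, with 0 counts in some libraries, is left off the log axis. Foxf1 is highest, at 41.4 on average in non-irradiated libraries, and Gli1 is lowest, at 0.0631.

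Transcripts of the Hedgehog ligands were hardly present in these cells. Ligand protein, including any in the conditioned medium or serum, was not measured. Shh, the ligand of stomach and colon epithelium, had 1 count over all 8 libraries, and Ihh, the main ligand of intestinal epithelium, had 11. Dhh, a ligand known from Schwann and Sertoli cells, had 2, 3, 3 and 4 counts in non-irradiated I to IV and 6, 8, 5 and 5 in irradiated I to IV. Every irradiated library was above every non-irradiated one, but all were at 8 counts or fewer. An exact two-sided permutation test of Dhh in CPM gave p = 0.0286, the smallest that 70 arrangements can give, and 0.114 after Benjamini-Hochberg adjustment over the 4 untested genes so examined (Dhh, Ihh, Shh and Hhip), chosen after their counts were seen. Disp1, which releases the lipid-modified ligand from the producing cell, was at 44.9 ± 1.44 and 43.3 ± 1.77 CPM (SD, n = 4 each, here and below non-irradiated first; edgeR adjusted p = 0.527). Hhat, the acyltransferase that adds palmitate to the ligand, was at 12.2 to 12.7 CPM in non-irradiated and 10.6 to 11.5 CPM in irradiated libraries. Its groups did not overlap, where 8.07% of all genes tested were lower without overlap. Its log2 fold change of -0.19 missed the threshold (adjusted p = 0.0815).

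Ptch1, the receptor and a target of the pathway (ENSMUSG00000021466, chromosome 13, 63508328 to 63573598, mm10 coordinates from GENCODE M21), was at 27.0, 22.3, 24.6 and 23.7 CPM in non-irradiated I to IV and at 23.7, 24, 21.7 and 22.6 CPM in irradiated I to IV. Non-irradiated I and III stood above all irradiated libraries, non-irradiated II and IV lay within the irradiated range, and the groups overlapped. The log2 fold change was -0.08 (SE 0.06, 95% interval -0.22 to 0.05, adjusted p = 0.478). The co-receptor Gas1, which presents ligand to Ptch1, was the most abundant uncalled gene of its list at 68.7 ± 6.36 and 75.9 ± 10.4 CPM (adjusted p = 0.375). Boc, another co-receptor, was at 41.8 to 44.9 CPM and 41.3 to 43.0 CPM (log2 fold change -0.03, adjusted p = 0.680).

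Smo, the transducer (ENSMUSG00000001761, chromosome 6, 29735503 to 29761365), was at 139, 139, 146 and 133 CPM in non-irradiated I to IV and at 133, 132, 144 and 140 CPM in irradiated I to IV. The 2 groups spanned nearly the same range. Its log2 fold change of -0.02 (SE 0.04, adjusted p = 0.823) had a 95% interval from -0.11 to 0.07. Sufu, which holds GLI proteins in the cytoplasm, and Kif7, the kinesin of the ciliary tip, had log2 fold changes of -0.08 and -0.06 (adjusted p = 0.519 and 0.621). Csnk1a1, a kinase that phosphorylates GLI proteins, was at 846 ± 13.9 and 869 ± 24.8 CPM (adjusted p = 0.571), and Kif3b, a motor of transport into the cilium, at 172 ± 10.5 and 168 ± 4.44 CPM (adjusted p = 0.685).

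Of all genes tested, edgeR called 6.74%. None of the 46 tested genes in the lists of ligand handling, receptors, signal transduction and ciliary transport was called by edgeR, DESeq2 or limma-voom. These lists hold 53 genes. At an unadjusted p under 0.05, 1 was higher (Tctn1, of the ciliary transition zone) and 3 were lower, Hhat and Tulp3 among them, or 8.70% of those tested, against 21.2% of all genes tested. Their median log2 fold change was -0.03.

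The 3 GLI factors differed in level and in change. Gli2, the main activator of the pathway (ENSMUSG00000048402, chromosome 1, 118834132 to 119053619), was at 12, 11.3, 9.50 and 10.2 CPM in non-irradiated I to IV and at 8.05, 8.87, 6.28 and 7.55 CPM in irradiated I to IV. Every irradiated library was below every non-irradiated one, with irradiated III lowest. Gli2 fell from 10.8 ± 1.11 to 7.69 ± 1.09 CPM (SD, n = 4), to 0.715 of the control level (log2 fold change -0.48, SE 0.11, 95% interval -0.71 to -0.26, adjusted p = 0.0137). It was the only member whose groups did not overlap, where 8.07% of all genes tested were lower without overlap, 14.2% did not overlap in either direction and 6.33% were both called and without overlap. In bulk RNA, fewer cells carrying a transcript and less of it per cell cannot be told apart.

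The fall of Gli2 was called in all 8 fits that left out 1 library (adjusted p = 0.00854 to 0.0473). Without irradiated I and II, which stood apart in mitochondrial rRNA, its log2 fold change was -0.64 (adjusted p = 0.00952). Without irradiated III and IV, a setting chosen after seeing the data, it was -0.34 and no longer called (adjusted p = 0.147).

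Gli3, which acts mostly as a repressor in the absence of ligand (ENSMUSG00000021318, chromosome 13, 15463235 to 15730026), was at 54.3, 53.6, 48.6 and 52.0 CPM in non-irradiated I to IV and at 45.2, 48.8, 44.0 and 48.1 CPM in irradiated I to IV. The groups overlapped only through non-irradiated III and irradiated II. Its log2 fold change was -0.16 (SE 0.05, 95% interval -0.27 to -0.06), and its adjusted p = 0.0588 missed the threshold. DESeq2 called it (0.0404), as did the fits that left out non-irradiated III (0.0255) or that library together with non-irradiated I (0.0466).

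Gli1, the factor made in response to the pathway (ENSMUSG00000025407, chromosome 10, 127329882 to 127341974), had 8, 11, 14 and 8 counts in non-irradiated I to IV and 17, 6, 16 and 6 in irradiated I to IV. Irradiated I and III were above all controls and irradiated II and IV below them. The fit gave a log2 fold change of 0.05 (SE 0.35, adjusted p = 0.954) with an interval of -0.70 to 0.81, so that a change was not detectable at this depth. Of the 3 factors' summed CPM per kilobase, Gli3 made up 77.0 ± 0.962% in non-irradiated and 80.4 ± 1.6% in irradiated libraries (SD, n = 4). Gli2 made up 22.1 ± 1.03% and 18.5 ± 1.72%, and Gli1 0.898 ± 0.204% and 1.09 ± 0.561%. An exon of Gli1 overlaps the opposite-strand gene Arhgap9, which had 23 counts over all libraries, and an exon of Gli3 overlaps the opposite-strand transcript Gm6556, which had 142. The strand setting of the counting is not given in the sources used here.

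Hhip, the decoy receptor and target gene (ENSMUSG00000064325, chromosome 8, 79965851 to 80058006), had 6 counts in all, with 1, 0, 0 and 2 in non-irradiated I to IV and 1, 0, 1 and 1 in irradiated I to IV. It was too low to enter the fit. An exact two-sided permutation test of its CPM gave p = 0.743, where 4 libraries against 4 cannot go below 0.0286.

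**Figure D2:**
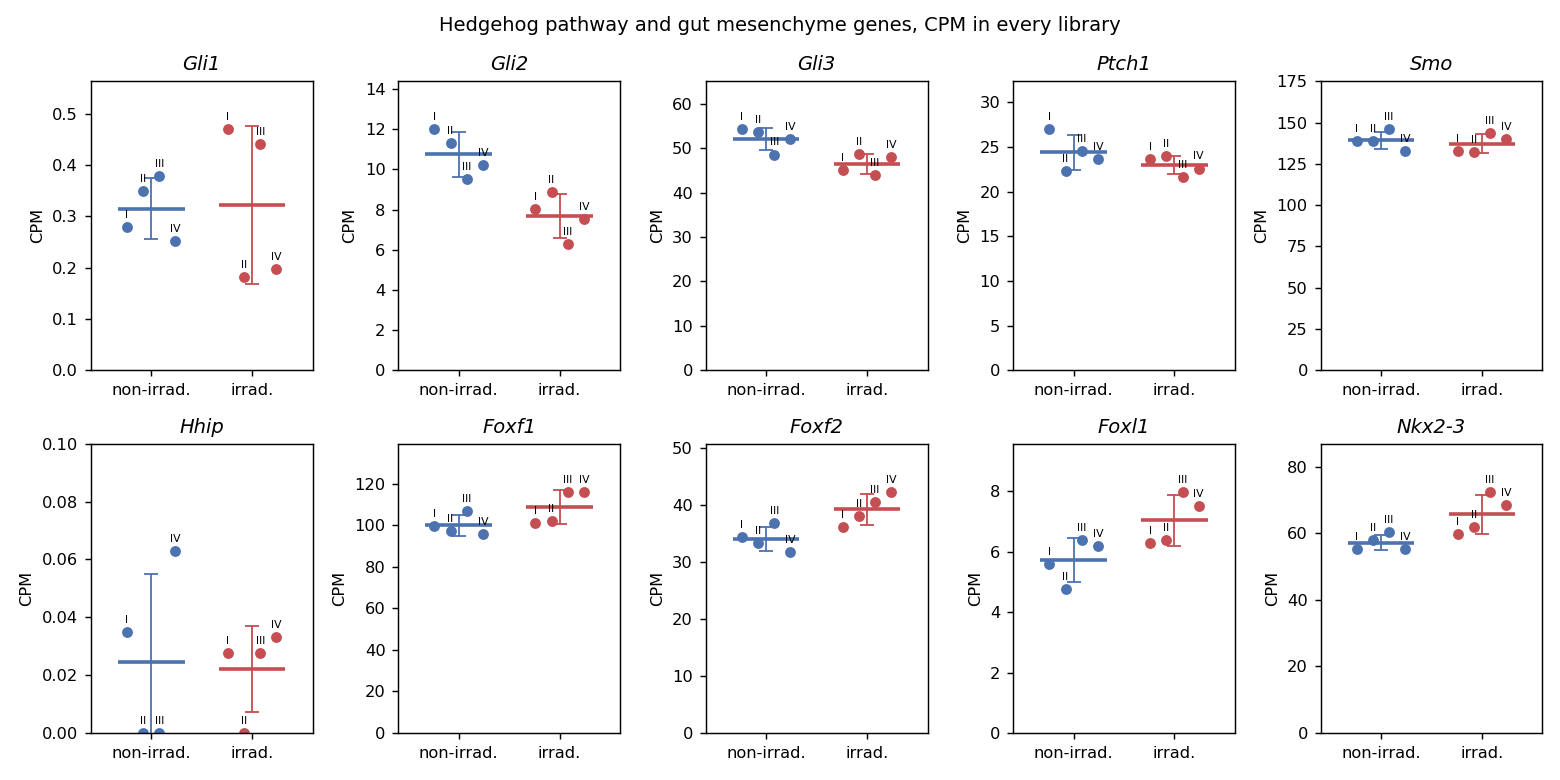
CPM of the 10 genes in each library (points with numerals I to IV), non-irradiated in blue and irradiated in red, with the group mean as a bar and ± SD as whiskers; each axis starts at 0. For Gli2 the irradiated points (6.28 to 8.87) lie below all controls (9.50 to 12), while for Foxf1, Foxf2, Foxl1 and Nkx2-3 irradiated III and IV are the highest points.

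The 4 mesenchyme factors had higher means in irradiated cells, and none passed the test. Foxf1 is needed for the formation of splanchnic mesenchyme, the tissue that gives rise to gut connective tissue and muscle (ENSMUSG00000042812, chromosome 8, 121084386 to 121088144). It was at 99.6, 97.0, 107 and 95.9 CPM in non-irradiated I to IV and at 101, 102, 116 and 116 CPM in irradiated I to IV. Irradiated III and IV were the highest libraries, and irradiated I and II lay within the control range. The log2 fold change was 0.12 (SE 0.06, adjusted p = 0.228).

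Foxf2, its paralog with a known role in intestinal fibroblasts (ENSMUSG00000038402, chromosome 13, 31625816 to 31631403), was at 34.4, 33.3, 36.8 and 31.8 CPM in non-irradiated I to IV and at 36.1, 38.0, 40.6 and 42.3 CPM in irradiated I to IV. Only irradiated I fell within the control range. The log2 fold change of 0.20 (SE 0.06, 95% interval 0.08 to 0.33) had an adjusted p = 0.0558. The paralogs share a forkhead domain, and the treatment of reads that map to both genes is not given in the sources used here.

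Foxl1, a marker of the subepithelial cells known as telocytes (ENSMUSG00000097084, chromosome 8, 121127940 to 121130644), was at 5.58, 4.77, 6.39 and 6.18 CPM in non-irradiated I to IV and at 6.28, 6.39, 7.98 and 7.51 CPM in irradiated I to IV. Again irradiated III and IV were highest, and I and II lay at the top of the control range. Its log2 fold change of 0.29 was the highest of the 9 (SE 0.11, 95% interval 0.06 to 0.53), with an adjusted p = 0.138.

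Nkx2-3 (ENSMUSG00000044220, chromosome 19, 43612325 to 43615892) was at 55.4, 58.0, 60.3 and 55.4 CPM in non-irradiated I to IV and at 59.8, 61.9, 72.5 and 68.7 CPM in irradiated I to IV. Its groups overlapped only through irradiated I and non-irradiated III. The log2 fold change was 0.20 (SE 0.06, 95% interval 0.07 to 0.32, adjusted p = 0.0629).

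Calls of Foxf2 and Nkx2-3 depended on the setting. DESeq2 called both (adjusted p = 0.0231 and 0.0230), as did the fit without irradiated I and II (0.0430 and 0.0133, with log2 fold changes of 0.28 and 0.30). Without non-irradiated III, Foxf2 was called (0.0290). Without irradiated I alone, Foxf2 (0.0355) and Nkx2-3 (0.0323) were called. Without irradiated III and IV, the log2 fold changes were 0.02 for Foxf1, 0.12 for Foxf2, 0.14 for Foxl1 and 0.09 for Nkx2-3. With library trends on transcript GC content and length removed, also chosen after seeing the data, they were 0.11 for Foxf1, 0.15 for Foxf2, 0.27 for Foxl1 and 0.13 for Nkx2-3, none of them called. The longest transcripts of the 4 genes had a GC content of 54.4% to 60.4%, against a median of 49.3% over genes tested, and lengths of 2112 to 2705 bases against a median of 3150. Gli2, at 57.5% and 6637 bases, stayed at -0.48 under the same correction. Over 15249 genes, log2 fold change had a Spearman correlation of 0.02 with GC content and -0.07 with transcript length. The part of GC content and length in these changes was not tested.

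**Figure D3:**
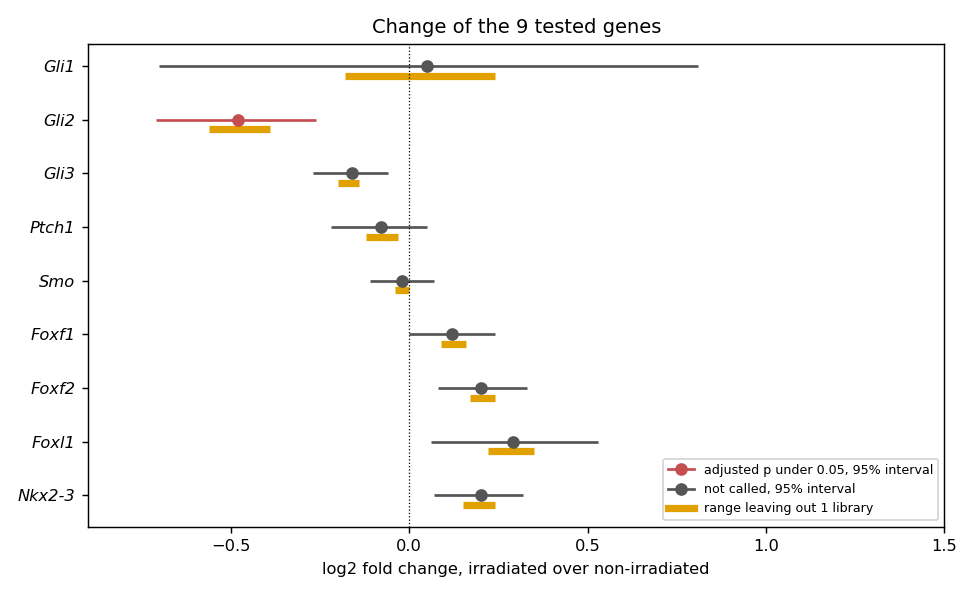
Log2 fold change of irradiated over non-irradiated for the 9 tested members, with unadjusted 95% intervals (thin lines) and the range over the 8 fits that leave out 1 library (thick yellow lines). Gli2, at -0.48, is the sole called gene; Foxl1 is highest at 0.29, and Gli1 has the widest interval, from -0.70 to 0.81.

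Genes next to the forkhead loci were not called. Foxf1, Mthfsd, Foxc2 and Foxl1 lie beside each other on chromosome 8, with the long noncoding RNA Fendrr next to Foxf1, and Foxf2 lies beside Foxq1 and Foxc1 on chromosome 13. Of the 7 neighbours tested, edgeR, DESeq2 and limma-voom each called 0, where edgeR called 6.74% of all genes tested. At an unadjusted p under 0.05, 1 neighbour was higher (14.3%, against 21.2% of all genes tested). That gene was Mthfsd, a folate metabolism gene between Foxf1 and Foxl1, at 43.1 ± 2.48 and 47.6 ± 2.17 CPM (SD, n = 4). Its groups did not overlap (adjusted p = 0.109), where 6.13% of genes tested were higher without overlap. Fendrr was at 15.1 to 17.4 and 14.8 to 16.3 CPM, with a log2 difference of -0.03 (adjusted p = 0.816). Foxc2, a forkhead factor of lymphatic and mesenchymal cells, was at 10.6 to 12.4 and 8.44 to 13.3 CPM, with a log2 difference of -0.06 (adjusted p = 0.832).

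Among genes known to respond to Hedgehog in mesenchyme, 1 of 13 tested was called higher and 0 lower. Of all genes tested, 2.59% were called higher and 4.15% lower. The median of the list on the log2 scale was 0.02. DESeq2 and limma-voom also called 1 and 0, and at an unadjusted p under 0.05 there were 3 higher and 1 lower. The unadjusted share was 30.8% of those tested, against 21.2% of all genes tested. Bmp2, a bone morphogenetic protein that fibroblasts send to the epithelium, was at 34.1, 36.2, 36.3 and 33.2 CPM in non-irradiated I to IV and at 42.0, 47.8, 46.5 and 42.1 CPM in irradiated I to IV. All irradiated libraries were above all controls, where 6.13% of all genes tested were higher without overlap. With group means of 35 ± 1.58 and 44.6 ± 2.99 CPM, Bmp2 rose 1.28-fold, or by 0.35 ± 0.05 (SE) on the log2 scale (edgeR adjusted p = 0.00114). That call was kept in all 8 fits that left out 1 library, without irradiated I and II (0.0127) and without irradiated III and IV (0.0123). Bmp4, the related ligand, was at 0.942 to 1.49 and 1.18 to 1.47 CPM (adjusted p = 0.501). Vegfa, the angiogenic growth factor, was the most abundant uncalled gene of the list at 915 ± 35.4 and 927 ± 41.1 CPM (adjusted p = 0.854).

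Of 16 tested transcription factors of gut mesenchyme outside the 10 genes, 4 were called lower and 0 higher, or 25.0% lower against 4.15% of all genes tested. The 4 were Zeb1, Prrx1, Foxp1 and Tbx18, and the median of the list was 0.00. The list was chosen with earlier results of these data known, so the contrast in shares is only a description. DESeq2 and limma-voom also called 4 lower and 0 higher, and at an unadjusted p under 0.05 there were 1 higher and 5 lower. The unadjusted share was 37.5% of those tested, against 21.2% of all genes tested. Zeb1, a zinc finger repressor of epithelial genes, fell, averaging 252 ± 5.94 CPM in control and 221 ± 3.02 CPM in irradiated cells (SD, n = 4), a log2 difference of -0.18 (SE 0.03, adjusted p = 0.00352). Prrx1, a homeobox factor of fibroblast identity, fell by 0.22 on the log2 scale (SE 0.04, adjusted p = 0.00397), with 308 ± 6.79 CPM in control and 264 ± 13.4 CPM in irradiated cells. Both were called whichever library was left out. Foxp1, a forkhead factor, fell from 191 ± 4.22 to 171 ± 5.36 CPM (-0.17, 0.0118), and Tbx18, a T-box factor of mural and mesenchymal cells, from 121 ± 6.98 to 107 ± 1.43 CPM (-0.19, 0.0223).

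Fits without pairs of irradiated libraries changed several of these calls. Without irradiated III and IV, Zeb1 (adjusted p = 0.0875), Prrx1 (0.0610), Foxp1 (0.158) and Tbx18 (0.195) all missed the threshold, with log2 fold changes from -0.19 to -0.15. Without irradiated I and II, Foxp1 (0.0557) and Tbx18 (0.0884) missed it. Tbx18 was also lost without any 1 of non-irradiated II and IV and irradiated I, III and IV (up to 0.0666). Zeb2, the relative of Zeb1, was at 405 ± 19.6 and 407 ± 9.61 CPM (adjusted p = 0.952).

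Of 18 genes of telocytes, which Foxl1 marks, and of crypt-base mesenchyme, 8 were tested, 1 was called higher and 0 lower, and the median was -0.03. Of all genes tested, 2.59% were called higher and 4.15% lower. DESeq2 called 1 higher and 2 lower, against 537 and 776 of all genes tested, and limma-voom 1 and 0, against 373 and 614. At an unadjusted p under 0.05, 1 of the 8 was higher and 3 were lower, where 21.2% of all genes tested passed. The 3 lower were Cd34 (log2 fold change -0.16, edgeR adjusted p = 0.0784), Dkk3 (-0.10, 0.0787) and Sfrp1 (-0.22, 0.226). The groups of Dkk3 did not overlap, where 8.07% of all genes tested were lower without overlap. The 10 left out for low counts included Bmp5, Bmp7 and Wnt4, known products of telocytes. Grem1, the antagonist of bone morphogenetic proteins made by fibroblasts at the crypt base, rose 1.12-fold, with 2927 ± 105 CPM in control and 3264 ± 121 CPM in irradiated libraries (SD, n = 4). The log2 difference was 0.16 (SE 0.04, adjusted p = 0.0349). Its groups did not overlap, where 6.13% of all genes tested were higher without overlap. The call was lost without non-irradiated I (0.0775) or IV (0.0801), irradiated I (0.0982) or II (0.131), irradiated I and II together (0.312) or III and IV together (0.0578) and under the GC and length correction (0.0615). Pdgfra, the receptor that telocytes carry at high levels, was at 973 ± 31.5 and 952 ± 20.6 CPM (adjusted p = 0.674), and the crypt niche factor Rspo3 had a log2 fold change of -0.03 (adjusted p = 0.883).

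**Figure D4:**
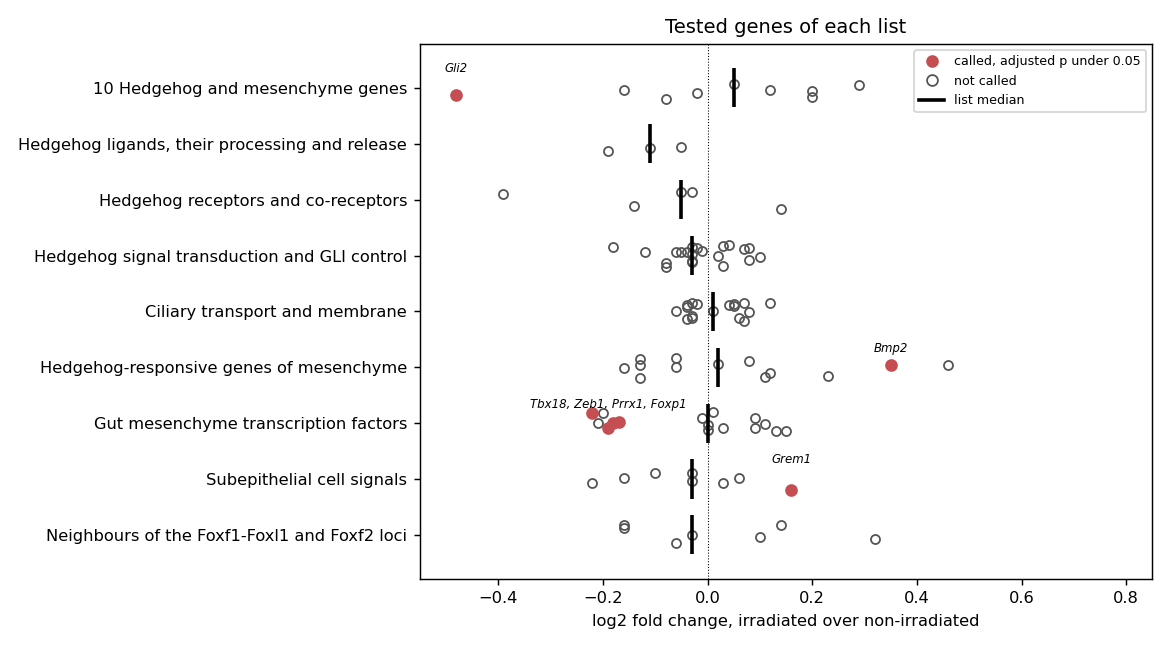
Log2 fold change of irradiated over non-irradiated for the tested genes of each list (1 point per gene, called genes filled and named, list median as a bar; vertical spread within a list only separates the points). Gli2 at -0.48 is the lowest point, and most pathway and cilium genes lie within 0.2 of 0.

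The genes whose log2 CPM followed Ptch1 most closely over the 8 libraries, among 10348 genes with a mean of at least 5 CPM, were Zfp142 (Pearson r 0.977), Parvb (0.976), Eif4ebp2 (0.976), Ccnd2 (0.974) and R3hdm2 (0.973). None of these was called, and Ccnd2, a cyclin known as a Hedgehog target, was at 379 ± 35.9 and 363 ± 15 CPM (SD, n = 4). Those closest to Foxf1 were Akt1s1 (0.995), Tle1 (0.994), Unc119 (0.988), Rfk (0.984) and Ppp1r9b (0.979), with log2 fold changes from 0.10 to 0.21 and no call. These values describe likeness over 8 libraries of both groups, so a difference between the groups enters each of them.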

How the data were processed

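Polyadenylated RNA, per the labels, was counted in 8 libraries. The authors deposited unnormalized read counts, 1 file per library, with Ensembl identifiers. The submitters' processing notes list featureCounts 1.5.0-p1, STAR 2.5.2a, bcl2fastq 2.20.0.422 and the mm10 build. The annotation release, strand setting and treatment of multi-mapped reads were not given in the sources used here. Symbols, coordinates and exon lengths came from GENCODE M21 (GRCm38, the coordinates of mm10), which matched 55480 of 55573 identifiers. Promoters came from RefSeq (GRCm38.p6).

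The deposited counts of all 8 libraries entered 1 edgeR fit (version 4.0.16, R 4.3.3) with a term for group, TMM factors, filterByExpr (minimum count 10, minimum total 15) and Benjamini-Hochberg adjustment over 15259 genes, and the pipeline was tested on simulated data. CPM use the TMM factors. SE is the log2 fold change over the root of F, and 95% intervals are not adjusted. A count of 0 allows up to 3 counts in a library, covering counting error only. The alternatives were other factors, DESeq2 1.42.0, limma-voom (limma 3.58.1), other filters, a threshold of 0.01, a replicate block and leaving out libraries. A loess correction (span 0.5) for GC content and length, and the fit without irradiated III and IV, were chosen after seeing the data.

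The members and lists were chosen with earlier results of these data known. The rule for named genes took all members, the ligands, from each further list the called genes (the 4 with the smallest adjusted p where more than 5 were called) and the uncalled gene with the highest mean CPM, and the 5 genes most like Ptch1 and Foxf1. Other list genes were named after their values were seen. Some listed genes are not reported here.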

Additional observations from a re-analysis of the deposited data

Results flagged for a closer look

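In Prrx1, non-irradiated III stood apart from the other control libraries at 298 CPM, where these were at 311 to 312 CPM. The gap took 0.913 of the group's range, above Dixon's 95% critical value for 4 samples. It was the sole such case among 50 groups of 4 examined for the named genes, and chance flags about 1 in 20 groups. All irradiated libraries lay below it, and without non-irradiated III the log2 fold change of Prrx1 was -0.24 (edgeR adjusted p = 0.00453).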

How the results depend on the processing

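Counts are given as higher and lower, against 395 and 634 of all genes, 0 and 1 of the members and 2 and 4 of the list genes. Leaving out 1 library gave 221 to 402 higher and 415 to 611 lower genes, 0 to 2 higher and 1 to 2 lower members, and 1 to 2 higher and 3 to 6 lower list genes. Members called higher numbered 2 with upper-quartile factors, 2 with DESeq2, 2 without a filter, 1 with at least 1 CPM in 4 libraries, 2 without irradiated I and II and 1 without non-irradiated I and III. Over all genes, these settings called 301 to 648 higher. Members called lower numbered 2 with DESeq2 and 2 without non-irradiated I and III, where 776 and 579 of all genes were called lower. At a threshold of 0.01 there were 140 and 296 genes, 0 lower members (Gli2 missed it) and 1 and 2 list genes. Without irradiated III and IV there were 125 and 267 genes, 0 lower members and 1 and 0 list genes. No filter gave 648 higher genes and 8 lower list genes, the fit without irradiated I and II 295 lower genes, and the GC and length correction 1 higher list gene. The cause was not tested, beyond the smaller number of libraries where some were left out.

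With the numeral as a replicate block, 3 members were higher (Foxf2, Foxl1 and Nkx2-3) and 2 lower (Gli2 and Gli3). That fit also called more of all genes, 550 higher and 802 lower, against 395 and 634 in the reported fit. Deviations of same-numbered libraries from their group means correlated at 0.02, -0.03, 0.27 and 0.15, and not every library correlated best with its own numeral, so the numerals were not taken to pair the libraries.

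Of 478 log2 fold changes of named genes under the alternatives, 418 kept their sign and side of the threshold, 20 newly passed, 23 no longer passed and 17 changed sign. The sign changes were all of genes not called in the reported fit. Gli1 was at -0.06 with limma-voom and from -0.18 to 0.24 leaving out 1 library. Smo was at 0.03 without irradiated I and II, 0.01 without non-irradiated I and III and -0.04 to 0.00 leaving out 1 library. Without non-irradiated I and III, Kif3b was at 0.04 and Zeb2 at -0.04. Zeb2 was at -0.01 without irradiated I and II and -0.02 to 0.04 leaving out 1 library. Without irradiated III and IV, Gas1 was at -0.02 and Vegfa at -0.04, and Vegfa was at 0.00 to 0.04 leaving out 1 library. Depth limits Gli1, Hhip and the ligands.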

Other observations

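Irradiated III and IV were the highest 2 of the 8 libraries for 4 of the 9 tested members (Foxf1, Foxf2, Foxl1 and Nkx2-3) and for 7.33% of all genes tested, a pattern noticed after the values were seen and given without a test. The same 2 libraries were highest for Foxc2, Foxq1 and Foxc1, the 3 further forkhead genes beside the Foxf1, Foxl1 and Foxf2 loci, which make up 3 of the 7 neighbouring genes. They were also highest for 4 of 16 gut mesenchyme transcription factors (Nkx3-2, Pitx1, Twist1 and Gata6), 4 of 13 Hedgehog-responsive genes (Foxc2, Nkx3-2, Vegfa and Tbx2), 1 of 5 receptors and co-receptors (Gas1) and 1 of 21 transduction genes (Csnk1a1). The count was 0 of 17 ciliary genes, 0 of 8 telocyte and crypt-base genes and 0 of 3 genes of ligand handling. Tbx2 was at 1.12 to 1.41 CPM in non-irradiated libraries, 2.29 and 2.01 CPM in irradiated III and IV, and 1.41 and 1.39 CPM in the other irradiated libraries (log2 fold change 0.46, edgeR adjusted p = 0.170). Irradiated I and II were the libraries with the most mitochondrial rRNA (15129 and 15263 CPM), and its part in this pattern was not tested.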
